A study of Mus musculus with 16 samples.

Results

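The effect of the 5xFAD transgenes was measured in the cerebral cortex of mice that also carry the Dp16 duplication. The 4 poly-A RNA libraries of 5xFAD-Dp16 mice were set against the 4 libraries of Dp16 mice, which are 8 of the 16 libraries in the series. All animals were 9 months old, each group held 2 females and 2 males, and no treatment is recorded. 5xFAD-Dp16 mice carry the transgenes and the duplication, and Dp16 mice carry the duplication alone. Both groups therefore share the extra copy of a distal segment of mouse chromosome 16, which holds mouse App and corresponds to much of human chromosome 21. The remaining libraries, 4 of 5xFAD mice and 4 of wild-type C57BL/6J mice without the duplication, were used to ask whether the transgene effect differed between the backgrounds. The labels give the genotypes only by these names, with no litter or cohort, so the p-values measure the spread between these samples. In the 5xFAD line, human transgenes with familial Alzheimer's disease mutations, APP among them, are driven by the neuronal Thy1 promoter, so the model has overproduction of amyloid in neurons and not the disease's natural course.

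Microglia are the resident macrophages of the brain. Around amyloid plaques they enter an activated state in which the lipid receptor Trem2, signalling through its adaptor Tyrobp, is required for high expression of phagocytic receptors, lysosomal proteases and lipid-handling proteins. In sorted cells this state is accompanied by lower levels of the homeostatic genes P2ry12 and Tmem119. Astrocytes near plaques become reactive and raise the filament protein Gfap, the protease inhibitor Serpina3n and complement C4b.

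Library totals were 19132245 to 22447862 counts in 5xFAD-Dp16 and 20335192 to 22288411 in Dp16, and 17555 genes passed the low-count filter. The cortical markers Slc17a7, Tbr1, Cux2, Rorb and Neurod6 were present in every library, and Slc17a7, the vesicular glutamate transporter of cortical excitatory neurons, was at 629.6 to 947 CPM (counts scaled to the normalized library total) in 5xFAD-Dp16 and 472 to 989 CPM in Dp16. Markers of choroid plexus and ependyma were uneven: their summed level was 1148 and 3073 CPM in 5xFAD-Dp16 replicates 1 and 4, which are the females, and 1377 and 1608 CPM in Dp16 replicates 1 and 4, which are the males, against 210 to 263 CPM in the other 4 libraries of these groups. Dp16 replicate 3 stood apart with a summed striatal marker level of 900 CPM, while the other 3 Dp16 libraries had 1634 to 2009 CPM. In Dp16 replicates 3 and 4 long genes were lower relative to short ones, with slopes of -0.172 and -0.175 (log2 CPM deviation per doubling of gene length), while the other 6 libraries had slopes of -0.106 to 0.152. Among all 16 libraries the lowest slope, -0.421, was that of wild-type replicate 3.

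The labels were checked with Thy1, a neuronal surface protein whose promoter is part of the transgenes. The gene lies at chr9:44043384-44048579 (GRCm38, plus strand). Its level was 2205, 2070, 1896 and 1835 CPM in the 5xFAD-Dp16 libraries, against 887, 1051, 846 and 767 CPM in the Dp16 libraries. Every 5xFAD-Dp16 library was above every Dp16 library, with a log2 fold change of 1.18 ± 0.14 (SE, n = 4 against 4, edgeR adjusted p = 0.00165). Mouse App, present in an extra copy in both groups, averaged 1977 ± 277 CPM in 5xFAD-Dp16 and 1867 ± 454 CPM in Dp16 (SD, n = 4 each), and the groups overlapped (log2 fold change 0.08 ± 0.24, edgeR adjusted p = 0.98). The sources at hand do not say how reads of the human transgenes were assigned. Whether the higher Thy1 counts came from the mouse gene or from transcribed transgene sequence was not tested.

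Of the 17555 genes tested, 68 were higher in 5xFAD-Dp16 than in Dp16 and 0 were lower (edgeR's quasi-likelihood test, Benjamini-Hochberg adjusted p under 0.05), a background of 0.387% called higher. Of the 68 genes 42 were in 1 or more of the gene lists used here, among them 7 of the microglial surface receptor list, 6 of the pan-myeloid list and 5 of the reactive astrocyte list. At an unadjusted p under 0.05, 558 genes (3.18%) were higher and 130 (0.741%) lower, and DESeq2 called 174 higher and 5 lower. With the gene-length slope of each library as a covariate edgeR called 214 higher and 1 lower, and the counts of several lists were larger in that fit, as given with each list. The median log2 fold change over all genes was 0.01. For 66 of the 68 called genes every 5xFAD-Dp16 library was above every Dp16 library, an arrangement found in 388 of all tested genes (2.21%), while 154 genes (0.877%) had it the other way. Their log2 fold changes ran from 0.98 to 7.43, with a median of 1.78, and 66 are protein-coding. The count is sensitive to single libraries. It was 31 without 5xFAD-Dp16 replicate 1, 36 without its replicate 4 and 22 without Dp16 replicate 2. It was 33 without Dp16 replicate 3, 42 without Dp16 replicate 4 and 127 without wild-type replicate 3. With the 4 libraries of high choroid plexus markers left out, 0 genes were called (380 at an unadjusted p under 0.05). That fit sets 2 males of 5xFAD-Dp16 against 2 females of Dp16, so fewer libraries and sex cannot be told apart from choroid content in it.

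**Figure D1:**
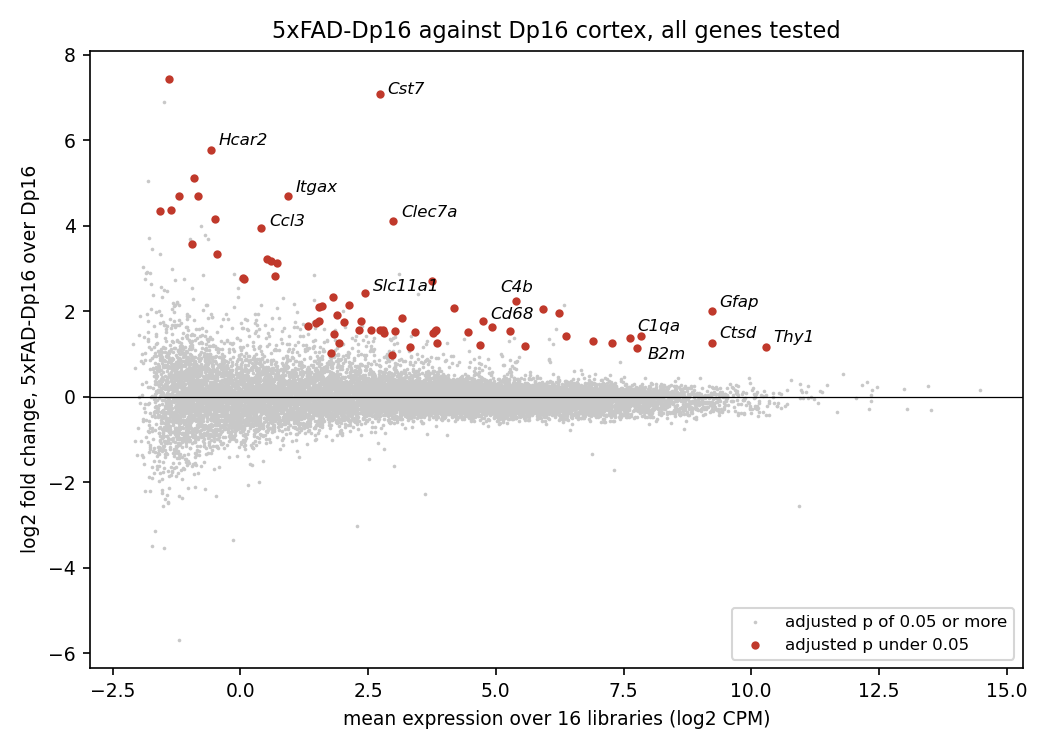
Log2 fold change of 5xFAD-Dp16 over Dp16 (vertical axis) against mean expression over 16 libraries in log2 CPM (horizontal axis) for the 17555 genes tested. The 68 genes with an edgeR adjusted p under 0.05 are in red and all lie above 0, from low-expressed Hcar2 and Itgax to abundant Ctsd and Thy1.

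Among surface receptors and adhesion proteins of plaque-associated microglia, 7 of 20 members tested rose and 0 fell. Of the 20, 20 had a log2 fold change above 0, and the list's median was 1.89. The count was 4 without Dp16 replicate 2, 11 without wild-type replicate 3 or with DESeq2, and 13 with the slope covariate. Trem2 was at 159, 96.0, 62.7 and 141 CPM in the 5xFAD-Dp16 libraries, against 18.0, 21.0, 33.6 and 34.1 CPM in the Dp16 libraries. The groups were apart, with the lowest 5xFAD-Dp16 value in replicate 3, a male (log2 fold change 2.05 ± 0.31, edgeR adjusted p = 0.00627). Clec7a, which encodes the beta-glucan receptor dectin-1, was at 65.4, 35.1, 14.9 and 52.7 CPM in 5xFAD-Dp16, against 0.788, 1.35, 6.10 and 1.69 CPM in Dp16. Within Dp16 its highest value was in replicate 3 (log2 fold change 4.10 ± 0.57, edgeR adjusted p = 0.00369). Itgax, the integrin CD11c, was at 21.0, 4.92, 5.81 and 7.95 CPM in 5xFAD-Dp16 and at most 0.546 CPM in a Dp16 library (log2 fold change 4.70 ± 0.57, edgeR adjusted p = 0.00165). Tlr2, a receptor for bacterial lipoproteins, rose by 2.34 ± 0.37 on the log2 scale. Cd52 and Gpr84, a receptor for medium-chain fatty acids, were also called, at log2 fold changes of 1.84 ± 0.31 and 2.82 ± 0.50.

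Hcar2, the receptor for niacin and beta-hydroxybutyrate, was near the floor without the transgenes. It had 267 counts over the 4 libraries of 5xFAD-Dp16 and 4 counts over those of Dp16. The ratio per library total was 67.9 (95% interval 26.2 to 251, counting error only). The adaptor Tyrobp averaged 115 ± 40.4 CPM in 5xFAD-Dp16 and 36.9 ± 12.2 CPM in Dp16 (SD, n = 4 each) and did not pass the test (log2 fold change 1.59 ± 0.34, edgeR adjusted p = 0.067). The growth factor receptor Csf1r (0.87 ± 0.36) and the phosphatidylserine-sensing kinase Axl (0.58 ± 0.33) did not pass either, both with an edgeR adjusted p of 0.98. With the slope covariate Tyrobp (1.83, edgeR adjusted p = 0.000552) and Csf1r (0.66, edgeR adjusted p = 0.0079) were called.

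Secreted and lysosomal-lipid proteins of the same microglial state had 4 of 22 members called higher and 0 lower, with a median of 0.66. Cst7, which encodes the protease inhibitor cystatin F, had the largest fold change of the named genes with a mean of at least 1 log2 CPM. It lies at chr2:150570415-150578944 (GRCm38, plus strand). It was at 115, 48.1, 34.9 and 70.0 CPM in 5xFAD-Dp16, against 0.306, 0.193, 1.54 and 0 CPM in Dp16. The groups were more than an order of magnitude apart in every library (log2 fold change 7.09 ± 0.63, edgeR adjusted p = 0.000171). Ctsd, the lysosomal aspartic protease cathepsin D, was at 1291, 755, 580 and 899 CPM in 5xFAD-Dp16, against 351, 355, 328 and 384 CPM in Dp16. The Dp16 libraries lay within a narrow band and the 5xFAD-Dp16 libraries were all above it (log2 fold change 1.26 ± 0.20, edgeR adjusted p = 0.00952). Lgals3bp, a secreted galectin-binding protein (1.62 ± 0.26), and the chemokine Ccl6 (2.71 ± 0.50) were the other two called members. Without Dp16 replicate 2 or replicate 3, 1 member of the list was called, with DESeq2 7 and with the slope covariate 12.

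Apoe, the main lipid carrier of the brain, was at 4998, 3370, 3117 and 4168 CPM in 5xFAD-Dp16, against 2852, 2878, 2182 and 2856 CPM in Dp16. Its groups did not overlap, yet it missed the threshold (log2 fold change 0.53 ± 0.16, edgeR adjusted p = 0.414). It was called in 1 of 29 alternative analyses, the slope covariate (0.52 ± 0.13, edgeR adjusted p = 0.0468). Some genes often used as markers of this state varied between animals. Spp1, osteopontin, averaged 33.0 ± 32.4 CPM in 5xFAD-Dp16 and 10.8 ± 1.1 CPM in Dp16 (SD, n = 4 each). Gpnmb, a lysosomal glycoprotein, averaged 26.3 ± 29.5 CPM in 5xFAD-Dp16 and 3.06 ± 0.73 CPM in Dp16. Neither was called (edgeR adjusted p = 0.98 and 0.075).

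**Figure D2:**
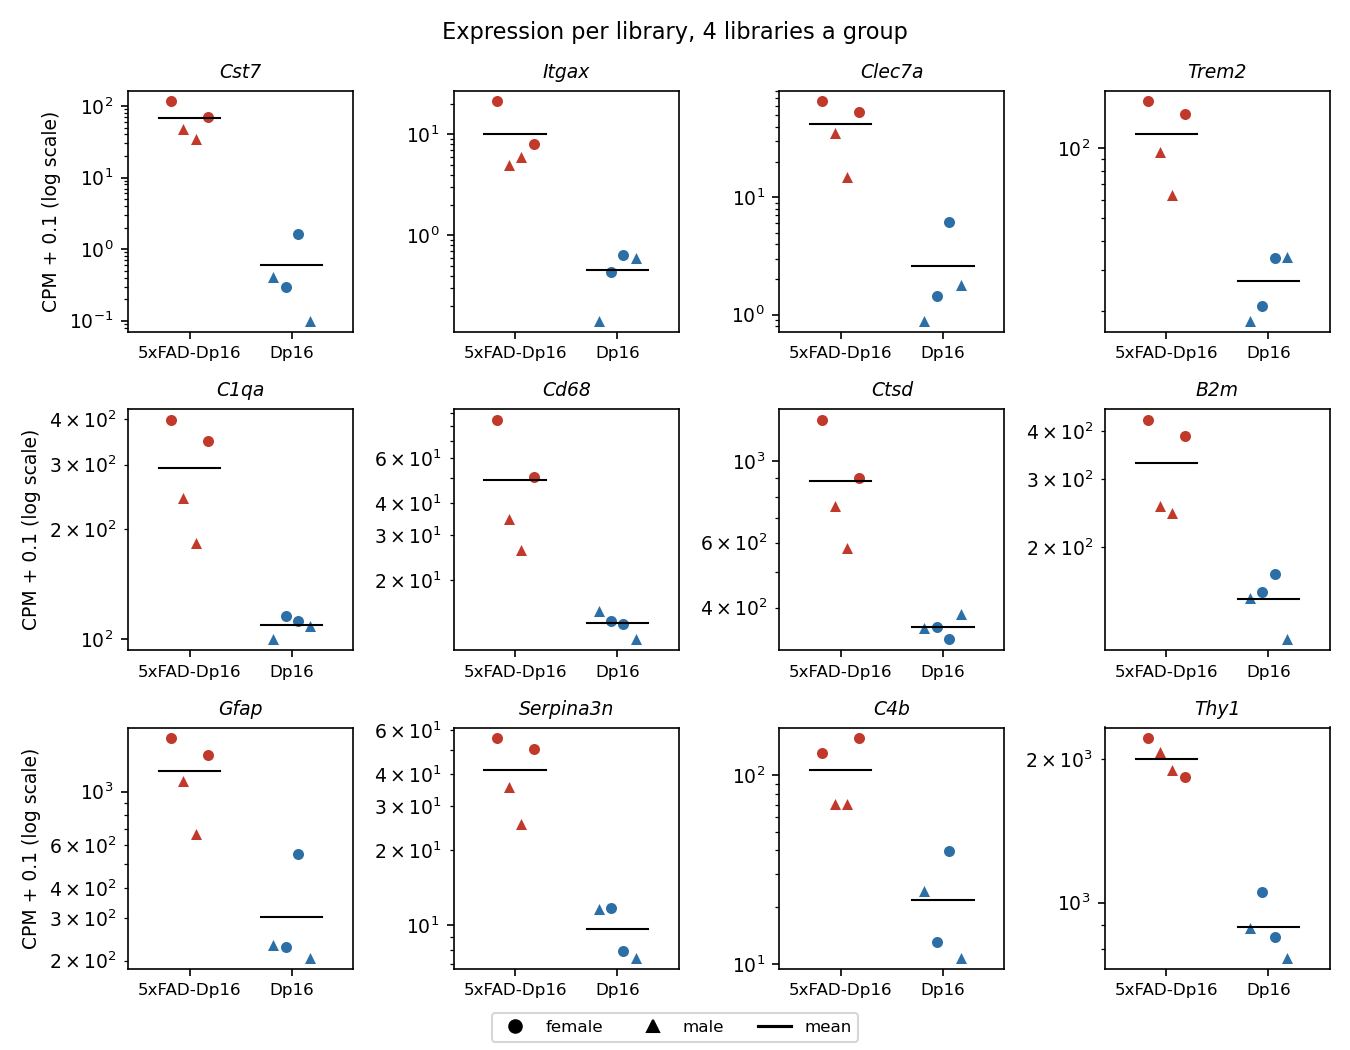
Expression of 12 genes in each library, as CPM + 0.1 on log axes, with 5xFAD-Dp16 at the left and Dp16 at the right of each panel. Circles are females, triangles males and bars group means, and no panel has overlapping groups, the closest being Gfap with 669 CPM in the lowest 5xFAD-Dp16 library and 549 CPM in the highest Dp16 library.

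Homeostatic microglial genes were not lower in 5xFAD-Dp16. All 22 members tested had a log2 fold change above 0, with a median of 0.63, and 14 had an unadjusted p under 0.05 in the higher direction, against 3.18% of all genes. Fcrls, an Fc receptor-like gene used to tell microglia from blood monocytes, was the 1 member called. It was at 86.1, 56.7, 46.9 and 67.9 CPM in 5xFAD-Dp16, against 29.8, 28.9, 27.6 and 23.8 CPM in Dp16. Its log2 fold change was 1.19 ± 0.21 (edgeR adjusted p = 0.0175). The purinergic receptor P2ry12 averaged 72.3 ± 12.7 CPM in 5xFAD-Dp16 and 49.6 ± 13.2 CPM in Dp16 (SD, n = 4 each). Tmem119 averaged 31.2 ± 8.3 CPM in 5xFAD-Dp16 and 20.8 ± 5.3 CPM in Dp16, and the fractalkine receptor Cx3cr1 82.3 ± 33.1 CPM in 5xFAD-Dp16 and 43.6 ± 7.0 CPM in Dp16. None of these 3 passed the test (edgeR adjusted p of 0.82, 0.947 and 0.198). The count of called members was 0 when any of 5xFAD-Dp16 replicates 1, 2 and 4 or Dp16 replicates 2, 3 and 4 was left out, 3 without 5xFAD-Dp16 replicate 3, 2 without wild-type replicate 1 and 4 without wild-type replicate 3. It was 6 with DESeq2 and 5 with the slope covariate. In bulk tissue, more microglia and more RNA per microglial cell cannot be told apart, and likewise fewer cells and less RNA per cell.

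Of 22 pan-myeloid genes 6 rose and 0 fell (median 1.09), and 21 had an unadjusted p under 0.05 in the higher direction. Their summed level was 1226, 717, 604 and 982 CPM in the 5xFAD-Dp16 libraries, against 420, 421, 401 and 452 CPM in the Dp16 libraries. The order within 5xFAD-Dp16 put both females above both males, and the Dp16 libraries were nearly level. The count of called members was 3 without 5xFAD-Dp16 replicate 1 or Dp16 replicate 3, 2 without Dp16 replicate 2 and 11 without wild-type replicate 3, and 12 with DESeq2 and 16 with the slope covariate. Cd68, a lysosomal membrane protein of phagocytes, was at 84.3, 34.4, 26.2 and 50.5 CPM in 5xFAD-Dp16, against 15.01, 13.7, 13.3 and 11.6 CPM in Dp16 (log2 fold change 1.77 ± 0.26, edgeR adjusted p = 0.005). Ctss, the protease cathepsin S that trims the class II invariant chain, rose by 1.43 ± 0.19 on the log2 scale. Irf8, a transcription factor of the myeloid lineage, rose by 1.53 ± 0.25, the phosphatase Ptprc (CD45) by 1.56 ± 0.24, and Fcer1g, the signalling chain shared by activating Fc receptors, by 1.22 ± 0.21.

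Other immune receptor families also had called members. Of 6 Fc receptor genes tested, 3 were called higher (median 1.37). They were Fcer1g, the activating receptor Fcgr1 (1.52 ± 0.28) and the inhibitory receptor Fcgr2b (1.54 ± 0.27). Of 6 SLAM family genes, whose products are homotypic receptors of blood cells, 3 were called (median 1.69): Slamf9, Ly9 and Cd84. Ly9 was at 4.62, 2.95, 2.26 and 5.81 CPM in 5xFAD-Dp16, against 0.394, 0.0964, 1.24 and 0.0456 CPM in Dp16 (log2 fold change 3.17 ± 0.56, edgeR adjusted p = 0.0175). Of 7 subunits and regulators of the phagocyte NADPH oxidase, which makes superoxide, 2 were called (median 1.07). Cybb, its catalytic subunit, was at 6.46, 3.36, 3.24 and 8.35 CPM in 5xFAD-Dp16, against 0.219, 0.337, 1.39 and 0.365 CPM in Dp16. The log2 fold change of Cybb was 3.21 ± 0.61 (edgeR adjusted p = 0.0299). Without 5xFAD-Dp16 replicate 1 or 4, or Dp16 replicate 2 or 3, 0 Fc receptor genes were called. The SLAM count was 0 without Dp16 replicate 2, and 1 without 5xFAD-Dp16 replicate 1 or 4 or Dp16 replicate 3 or 4. The oxidase count was least stable, as leaving out any 1 of 14 of the 16 libraries changed it to 0, 1 or, without wild-type replicate 3, 4 genes, the exceptions being 5xFAD-Dp16 replicate 3 and wild-type replicate 1. With the slope covariate 5 Fc receptor, 4 SLAM and 6 oxidase genes were called.

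These genes are shared among macrophages, so markers of other leukocytes were read beside them. The border macrophage markers Mrc1, Cd163, Lyve1 and Pf4 summed to 2.60 to 4.04 CPM in 5xFAD-Dp16 and 2.85 to 5.11 CPM in Dp16. Of the neutrophil, monocyte and border macrophage list 11 genes were tested and 0 were called (median 0.39, 9 above 0). At an unadjusted edgeR p under 0.05, 2 of the 11 were higher and 1 was lower. The neutrophil marker Ly6g had 0 counts in both groups. The monocyte receptor Ccr2, too low to test, had 22 counts over the 4 libraries of 5xFAD-Dp16 and 22 over those of Dp16. The T cell markers Cd3d, Cd3e, Cd3g and Cd8a were also too low to test. Cd4, the 1 T cell marker tested, overlapped, at 12.5 to 24.2 CPM in 5xFAD-Dp16 and 6.95 to 20.4 CPM in Dp16. Of the T, B and natural killer cell list 2 genes were tested and 0 were called (median -0.03). Of the CD3 chains of the T cell receptor complex, Cd3e had 23 counts in 5xFAD-Dp16 and 8 in Dp16, Cd3g 30 in 5xFAD-Dp16 and 11 in Dp16, and Cd3d 4 in 5xFAD-Dp16 and 1 in Dp16. The co-receptor Cd8a had 23 counts in 5xFAD-Dp16 and 4 in Dp16. Single libraries held much of these sums. For Cd3g, 22 of the 30 counts in 5xFAD-Dp16 and all 11 in Dp16 came from 1 library each. The highest library of Cd3e held 10 counts in 5xFAD-Dp16 and 6 in Dp16, and that of Cd8a held 12 in 5xFAD-Dp16 and 4 in Dp16.

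Complement genes had 5 of 18 members called higher and 0 lower (median 0.76). C1q is the recognition molecule of the classical pathway and is made in brain by microglia, and its 3 chains rose together. C1qa was at 397, 243, 183 and 349 CPM in 5xFAD-Dp16, against 99.998, 116, 112 and 108 CPM in Dp16. Its log2 fold change was 1.38 ± 0.17 (edgeR adjusted p = 0.00165). C1qb rose by 1.27 ± 0.18 and C1qc by 1.30 ± 0.17, and each of these genes had no overlap between groups. C4b, which carries the cascade forward after C1, was at 131, 70.4, 70.6 and 156 CPM in 5xFAD-Dp16, against 24.2, 13.1, 39.7 and 10.8 CPM in Dp16 (log2 fold change 2.24 ± 0.39, edgeR adjusted p = 0.0175). C4b has a near-identical neighbour, C4a, so its counts are uncertain to that extent, and C4a itself was not called (-0.03 ± 0.47). Itgb2, the beta chain of complement receptor 3, was the last called member (1.57 ± 0.27). C3, the central component that the C4b-containing convertase cleaves, averaged 2.02 ± 1.48 CPM in 5xFAD-Dp16 and 0.99 ± 0.50 CPM in Dp16 (SD, n = 4 each) and was not called. Without 5xFAD-Dp16 replicate 1 or 4, or Dp16 replicate 2 or 4, 3 complement genes were called.

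Of 17 genes of class I antigen presentation tested, 2 rose and 0 fell (median 0.88): B2m, the light chain of all class I molecules, and the heavy chain H2-D1. B2m was at 428, 256, 245 and 389 CPM in 5xFAD-Dp16, against 147, 153, 170 and 115 CPM in Dp16. All 4 values were above the Dp16 range (log2 fold change 1.15 ± 0.15, edgeR adjusted p = 0.00253). H2-D1 was at 182, 106, 91.8 and 192 CPM in 5xFAD-Dp16, against 58.2, 55.7, 55.0 and 38.96 CPM in Dp16. Its log2 fold change was 1.42 ± 0.24 (edgeR adjusted p = 0.0142). H2 genes are similar in sequence, so reads may be split between them. H2-K1 (1.31 ± 0.28) had an edgeR adjusted p of 0.061. The list had 1 called member without 5xFAD-Dp16 replicate 1 or 4, or Dp16 replicate 2, 3 or 4, and 4 with DESeq2 or the slope covariate. H2-K1 was called with the covariate (edgeR adjusted p = 0.0413).

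Class II genes were not called. All 7 tested members had a log2 fold change above 0 (median 1.37) and 5 an unadjusted p under 0.05. Cd74, the invariant chain that escorts class II molecules, was at 25.8, 9.71, 14.4 and 47.6 CPM in 5xFAD-Dp16, against 5.16, 3.04, 5.95 and 3.60 CPM in Dp16. Its groups did not overlap, but the 5xFAD-Dp16 values spread widely (log2 fold change 2.41 ± 0.50, edgeR adjusted p = 0.0565). It was called in 8 of 29 alternative analyses, DESeq2 among them, which called 2 class II genes. The class II chain H2-Aa averaged 9.77 ± 5.84 CPM in 5xFAD-Dp16 and 3.71 ± 1.68 CPM in Dp16 (SD, n = 4 each, log2 fold change 1.37 ± 0.56).

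Type I interferon signals through receptor subunits whose genes, Ifnar1 and Ifnar2, lie in the duplicated segment, and it induces a set of antiviral genes. Of 37 such genes tested, 2 were called higher and 0 lower, 35 had a log2 fold change above 0, and 22 had an unadjusted p under 0.05 in the higher direction (median 0.91). Trim30a, a regulator of innate signalling in mouse, was at 8.16, 6.62, 6.94 and 10.3 CPM in 5xFAD-Dp16, against 2.19, 1.93, 4.47 and 2.28 CPM in Dp16 (log2 fold change 1.56 ± 0.27, edgeR adjusted p = 0.0143). Usp18, which removes the ubiquitin-like protein ISG15 and dampens receptor signalling, rose by 1.72 ± 0.33. The count was 0 without 5xFAD-Dp16 replicate 1 or 4 or Dp16 replicate 1, 2 or 4, 1 without 5xFAD-Dp16 replicate 2, Dp16 replicate 3 or wild-type replicate 2, and 7 without wild-type replicate 3. It was 11 with DESeq2 and 10 with the slope covariate. The receptor genes themselves were not called: Ifnar2 averaged 28.7 ± 7.8 CPM in 5xFAD-Dp16 and 21.8 ± 2.4 CPM in Dp16, and Ifnar1 53.1 ± 2.1 CPM in 5xFAD-Dp16 and 48.5 ± 4.1 CPM in Dp16 (SD, n = 4 each).

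Of 21 members of the chemokine and cytokine list 3 were called higher and 0 lower (median 0.77), and these 3 were low in Dp16. The summed level of the list overlapped, at 479 to 653 CPM in 5xFAD-Dp16 and 375 to 693 CPM in Dp16. Ccl3, an inflammatory chemokine that attracts leukocytes, was at 9.28, 2.95, 1.90 and 7.30 CPM in 5xFAD-Dp16, against 0.175, 0.386, 0.744 and 0.0456 CPM in Dp16 (log2 fold change 3.95 ± 0.58, edgeR adjusted p = 0.00554). Ccl4, a closely related chemokine, had 121 counts over the 4 libraries of 5xFAD-Dp16 and 4 over those of Dp16. Cxcl10, an interferon-induced ligand of Cxcr3, was called at 2.76 ± 0.49. However, its groups overlapped, with 0.977 CPM in 5xFAD-Dp16 replicate 3 and 1.14 CPM in Dp16 replicate 3. The list had 1 called member without replicate 1 or 2 of either group, and 5 with the slope covariate.

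Of 43 lysosomal enzymes and membrane proteins tested, 4 were called higher and 0 lower, with a median of 0.27: Ctss, Cd68, Ctsd and Atp6v0d2. The count was 7 without wild-type replicate 3, 8 with DESeq2 and 15 with the slope covariate, where the median was 0.21. Atp6v0d2, a subunit of the proton pump that in mouse is typical of osteoclasts and macrophages, had 89 counts over the 4 libraries of 5xFAD-Dp16 and 0 over those of Dp16. It was at least 30.2-fold higher, taking 3 counts over the Dp16 group as the floor. The lipid transport list had 0 of 17 called, with a median of 0.15.

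Promoter sequences are shown for 4 called genes from 4 of these groups, C1qc from complement, Cybb from the oxidase, B2m from antigen presentation and Ctsd from the lysosome. Each is the stretch from -250 to -51 relative to the gene's start in RefSeq, 5′ to 3′ on the gene's strand, on GRCm38.p6. For C1qc, Cybb and Ctsd that start lies inside the longer GENCODE span of the gene. The printed stretch therefore lies partly within that span for C1qc and Ctsd, and wholly within it for Cybb. Capitals mark exact matches to a motif on either strand.
C1qc (chr4:136892965-136893164, minus strand): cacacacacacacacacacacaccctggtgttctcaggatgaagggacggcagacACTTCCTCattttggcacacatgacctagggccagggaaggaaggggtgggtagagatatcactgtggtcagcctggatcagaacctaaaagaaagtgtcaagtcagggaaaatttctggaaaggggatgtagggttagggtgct
Cybb (chrX:9469375-9469574, minus strand): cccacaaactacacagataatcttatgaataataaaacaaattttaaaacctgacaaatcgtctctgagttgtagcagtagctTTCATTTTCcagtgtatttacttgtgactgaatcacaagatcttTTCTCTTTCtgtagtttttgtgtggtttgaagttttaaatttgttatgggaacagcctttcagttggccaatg
B2m (chr2:122147437-122147636, plus strand): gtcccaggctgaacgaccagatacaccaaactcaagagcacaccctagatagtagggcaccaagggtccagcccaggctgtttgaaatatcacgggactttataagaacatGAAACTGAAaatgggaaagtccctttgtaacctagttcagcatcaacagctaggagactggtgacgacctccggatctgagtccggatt
Ctsd (chr7:142387878-142388077, minus strand): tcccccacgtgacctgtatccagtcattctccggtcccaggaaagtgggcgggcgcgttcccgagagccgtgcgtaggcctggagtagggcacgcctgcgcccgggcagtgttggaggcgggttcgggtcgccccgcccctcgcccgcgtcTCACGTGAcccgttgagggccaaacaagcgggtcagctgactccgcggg

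The capitals in C1qc are GAGGAAGT read on the opposite strand at -195, a purine-rich word of the macrophage factor Spi1. The capitals in Cybb are GAAANNGAA, the core of interferon-stimulated response elements, on the opposite strand at -167 and -123. B2m holds GAAANNGAA at -139, and Ctsd holds the palindromic E-box TCACGTGA of TFEB and MITF at -99. Windows of 250 bases before the start were at hand for 50 of the 68 called genes. GAGGAAGT was in 4 of the 50 (8.0%) and in 2.72% of the 12556 tested genes with a window. GAAANNGAA was in 9 of the 50 (18.0%) and in 7.48% of the tested genes, and TCACGTGA in 1 (2.0%) and 1.58%. The 4 printed stretches all hold a match and are not typical of their groups. The called genes C1qb of complement, H2-D1 of antigen presentation and Cd68 of the lysosome hold none in their windows. Both strands were searched, and TCACGTGA, a palindrome, matches both strands at the same letters. No other matches printed in capitals overlap. These matches are descriptions of letters and do not show binding.

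Reactive astrocyte genes had 5 of 32 members called higher and 0 lower (median 0.45). Gfap, at chr11:102887336-102900912 (GRCm38, minus strand), was at 1659, 1106, 669 and 1415 CPM in 5xFAD-Dp16, against 231, 227, 549 and 205 CPM in Dp16. Dp16 replicate 3 was well above the other Dp16 libraries, and the groups still did not overlap (log2 fold change 2.00 ± 0.25, edgeR adjusted p = 0.00174). Serpina3n was at 55.6, 35.7, 25.4 and 50.4 CPM in 5xFAD-Dp16, against 11.5, 11.6, 7.79 and 7.34 CPM in Dp16 (log2 fold change 2.07 ± 0.28, edgeR adjusted p = 0.00347). The other three called members, C4b, H2-D1 and the lipopolysaccharide co-receptor Cd14, are also expressed by microglia. The intermediate filament Vim averaged 42.8 ± 15.9 CPM in 5xFAD-Dp16 and 32.1 ± 12.002 CPM in Dp16 (SD, n = 4 each) and was not called. Among 18 general astrocyte markers 0 were called (median 0.18). The water channel Aqp4 averaged 146 ± 36.1 CPM in 5xFAD-Dp16 and 116 ± 8.1 CPM in Dp16. The reactive list had 2 called members without 5xFAD-Dp16 replicate 1 or 4 or Dp16 replicate 2 or 4, 3 without Dp16 replicate 3, and 8 with the slope covariate.

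**Figure D3:**
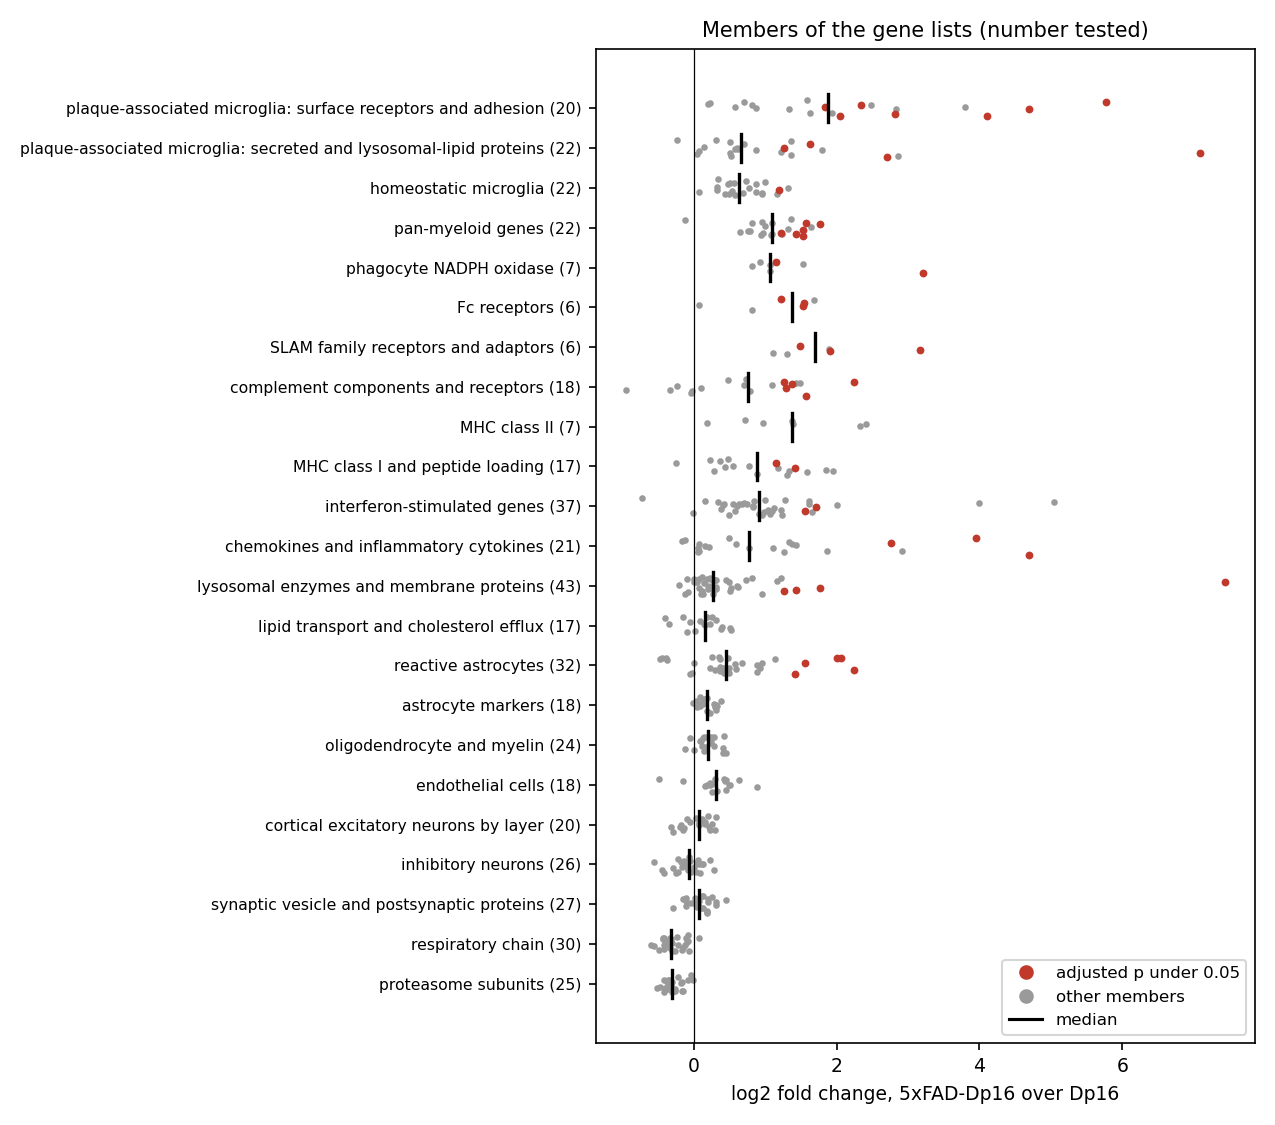
Log2 fold change of 5xFAD-Dp16 over Dp16 (horizontal axis) for the tested members of each gene list, with their number in brackets. Red points have an edgeR adjusted p under 0.05, black bars are medians, and the medians run from 1.89 for the surface receptors of plaque-associated microglia to -0.33 for the respiratory chain.

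Other brain cell types had few or no called genes. Among 24 oligodendrocyte and myelin genes 0 were called (median 0.20), and the 4 of 14 called in the disease-associated oligodendrocyte list were B2m, Serpina3n, H2-D1 and C4b, which stand in other lists above (2 members were called without 5xFAD-Dp16 replicate 1 or 4, or Dp16 replicate 2 or 4). Oligodendrocyte precursors (12 genes, median 0.25), endothelium (18 genes, median 0.31) and mural cells and fibroblasts (17 genes, median -0.18) had 0 called each. Neuronal lists had no called members apart from Thy1: 0 of 20 cortical layer genes (median 0.08), 0 of 26 inhibitory neuron genes (median -0.07), 0 of 27 synaptic genes (median 0.08), 0 of 26 glutamate and GABA receptor genes (median -0.01) and 0 of 20 activity-induced genes (median -0.11) were called. Thy1 was the 1 of 18 pan-neuronal genes called. The cortical peptide gene Cck averaged 456 ± 64.2 CPM in 5xFAD-Dp16 and 561 ± 90.9 CPM in Dp16 (SD, n = 4 each), and the growth factor Bdnf 20.1 ± 2.9 CPM in 5xFAD-Dp16 and 25.5 ± 2.8 CPM in Dp16, neither of them called. With DESeq2 the counts of these neuronal lists were also 0.

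Respiratory chain and proteasome genes lay below 0 almost throughout without any call. Of 30 respiratory chain genes 29 had a log2 fold change below 0 (median -0.33), and of 25 proteasome subunits 25 did (median -0.31), against 8560 of the 17555 genes tested. Of the 8 libraries compared, both sums were highest in Dp16 replicates 3 and 4, those of lowest gene-length slope. The respiratory chain sum was 9685, 12212, 9588 and 9950 CPM in the 5xFAD-Dp16 libraries, against 9574, 10911, 15339 and 14827 CPM in the Dp16 libraries. Over all 16 libraries the respiratory chain sum was highest, at 21837 CPM, in wild-type replicate 3. With the slope covariate the medians were -0.09 and -0.07, and 29 of 30 and 24 of 25 genes were below 0. The cell division list had 0 of 16 called (median 0.10), and the list of unfolded protein and integrated stress response genes had 0 of 24 called (median 0.00).

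No gene fell past the threshold in the main test, while Hdc, Gucy2g and Rpph1 were called lower by DESeq2. Leaving aside clone-based names, the 6 genes of smallest p with a log2 fold change below 0 had edgeR adjusted p-values of 0.171 to 0.374. Hdc, which makes histamine, was at 1.66, 1.16, 1.54 and 1.44 CPM in 5xFAD-Dp16, against 2.01, 2.84, 4.91 and 2.92 CPM in Dp16 (log2 fold change -1.11 ± 0.28). Gucy2g, a guanylate cyclase, was at 10.3, 10.7, 8.38 and 8.90 CPM in 5xFAD-Dp16, against 11.99, 15.5, 15.6 and 15.9 CPM in Dp16 (log2 fold change -0.62 ± 0.17). The groups were apart for both genes, and also for Scx, a tendon transcription factor (-1.01 ± 0.28). Rpph1, the RNA of ribonuclease P, had 22.2 CPM in Dp16 replicate 3 and at most 2.55 CPM in any other library of these groups.

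Among the 384 genes of the duplicated segment (chromosome 16, Lipi to Zbtb21), which both groups carry in extra copy, 109 were tested and 1 was called, Samsn1. Their median log2 fold change was 0.02, with 56 above 0 and 53 below. Samsn1, an adaptor of immune cells at chr16:75858793-76022281 (GRCm38, minus strand), was at 14.1, 9.13, 6.22 and 13.1 CPM in 5xFAD-Dp16, against 1.93, 3.04, 3.23 and 4.01 CPM in Dp16. The groups did not overlap (log2 fold change 1.78 ± 0.35, edgeR adjusted p = 0.0353), but the call was lost in 14 of 29 alternative analyses. The antiviral GTPase Mx1, in the same segment, averaged 2.30 ± 1.25 CPM in 5xFAD-Dp16 and 0.70 ± 0.38 CPM in Dp16 (SD, n = 4 each) and was not called (edgeR adjusted p = 0.338) except with the slope covariate (edgeR adjusted p = 0.038). The transcription factor Runx1 was not called either (1.09 ± 0.48).

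Of the 68 called genes, 26 were in no list. Slc11a1, a metal transporter of phagosomes, was at 17.5, 8.46, 6.22 and 14.5 CPM in 5xFAD-Dp16, against 2.01, 2.26, 1.49 and 2.32 CPM in Dp16. The gap between the groups exceeded the range within Dp16 (log2 fold change 2.42 ± 0.28, edgeR adjusted p = 0.00165). Naip2, a sensor of bacterial type III secretion proteins in mouse, rose by 2.09 ± 0.25. Tent5c, a poly(A) polymerase, rose by 2.13 ± 0.34, and the sialyltransferase gene St8sia6 by 2.13 ± 0.34. Naip2 belongs to a family of close paralogs, so its counts are uncertain.

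The 5xFAD effect was next compared with that in mice without the duplication. The interaction, (5xFAD-Dp16 minus Dp16) minus (5xFAD minus wild-type), had 0 genes called by edgeR, 239 at an unadjusted p under 0.05 (76 higher, 0.433%, and 163 lower, 0.929%) and 1 by DESeq2. The contrast of 5xFAD against wild-type called 264 genes higher (1.5%) and 2 lower (0.0114%), and 65 of the 68 genes called on the Dp16 background were among its calls. Over the 68 genes the median log2 fold change was 1.78 on the Dp16 background and 2.19 without it, although the 68 were chosen by the first contrast. Of the 68, 54 had the smaller value on the Dp16 background, against 7529 of all 17555 genes tested. Itgax averaged 9.93 ± 7.51 CPM in 5xFAD-Dp16 and 0.357 ± 0.227 CPM in Dp16, and 22.2 ± 12.7 CPM in 5xFAD against 0.14 ± 0.119 CPM in wild-type (SD, n = 4 each). Its interaction had an unadjusted p of 0.0241 and an edgeR adjusted p of 1. Gfap averaged 1212 ± 427 CPM in 5xFAD-Dp16 and 303 ± 165 CPM in Dp16, and 1863 ± 434 CPM in 5xFAD against 222 ± 45.3 CPM in wild-type (SD, n = 4 each), with an unadjusted interaction p of 0.00861 that likewise did not survive adjustment.

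The interaction of the class II genes lay to 1 side. For 7 of 7 members the interaction was below 0 (median -1.77), and 6 of 7 had an unadjusted p under 0.05, against 0.929% of all genes in that direction. None passed the adjustment over all genes (edgeR adjusted p = 1 for each). The summed class II level was 88.6, 49.3, 50.6 and 125 CPM in 5xFAD-Dp16, against 37.3, 33.2, 40.6 and 32.0 CPM in Dp16. It was 85.6, 135, 172 and 322 CPM in 5xFAD, against 23.5, 27.7, 31.8 and 26.4 CPM in wild-type. The ranges of the transgenic groups overlapped. Cd74 averaged 24.4 ± 16.9 CPM in 5xFAD-Dp16 and 4.44 ± 1.35 CPM in Dp16, and 60.0 ± 34.7 CPM in 5xFAD against 3.33 ± 1.33 CPM in wild-type (SD, n = 4 each). Its interaction was -1.77 ± 0.70 (unadjusted p = 0.0221). Rab7b, a late endosomal GTPase, had the smallest interaction p among genes with a full symbol (-1.86 ± 0.37, unadjusted p = 0.000136, edgeR adjusted p = 1).

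**Figure D4:**
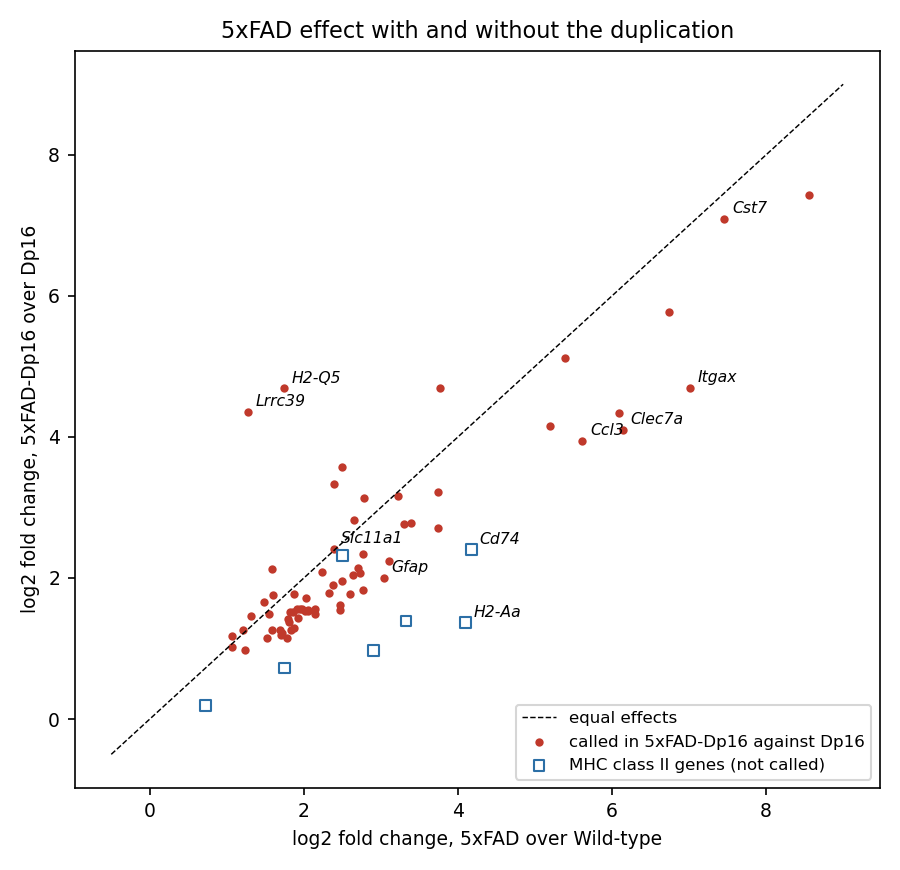
Log2 fold change of 5xFAD-Dp16 over Dp16 (vertical axis) against that of 5xFAD over wild-type (horizontal axis) for the 68 called genes (red) and the 7 tested class II genes (open squares). Of the 68 genes 54 lie below the dashed line of equal effects, and the class II genes lie below it too.

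The 3 called genes that did not pass in 5xFAD against wild-type are named because of that result. H2-Q5 had 66 counts over the 4 libraries of 5xFAD-Dp16 and 2 over those of Dp16 (log2 fold change 4.69 ± 0.72), with 1.74 in 5xFAD against wild-type and an unadjusted interaction p of 0.00537. Lrrc39 had 51 counts in 5xFAD-Dp16 and 2 in Dp16, with an unadjusted interaction p of 0.0145. Lox, a collagen cross-linking enzyme, had log2 fold changes of 3.33 ± 0.65 on the Dp16 background and 2.40 without it. The 3 genes had lower means in Dp16 than in wild-type: H2-Q5 0.024 against 0.281 CPM, Lrrc39 0.023 against 0.322 CPM and Lox 0.139 against 0.401 CPM. Their means in 5xFAD-Dp16 were not above those in 5xFAD: H2-Q5 0.778 against 0.979 CPM, Lrrc39 0.595 against 0.790 CPM and Lox 1.67 against 2.28 CPM. All 3 have an edgeR adjusted interaction p of 1.

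Females and males were compared within the background. For 56 of the 68 called genes, against 8763 of all 17555 tested, the log2 fold change was larger between females than between males. The called genes had medians of 2.17 between females and 1.42 between males (2 libraries a sex and group). No gene was called in the test of that difference by edgeR (at an unadjusted p under 0.05, 309 genes, 1.76%, had the larger value between females and 131, 0.746%, between males), and DESeq2 called 32. Ctss had the log2 fold changes 1.94 between females and 0.89 between males, with an unadjusted p of 0.00377 for the difference. Within 5xFAD-Dp16 the highest value was in replicate 1 for 53 of the called genes and in replicate 4 for 15, both of them females, and the lowest was in replicate 3, a male, for 54. The choroid plexus sum moved with this comparison: the genes of smallest p in it were Kcnj13, Kcne2, Mfrp, Tmem72 and Ttr, markers of that epithelium. Ttr, the thyroxine carrier transthyretin, was at 764 and 2182 CPM in 5xFAD-Dp16 females, against 9.35 and 5.21 CPM in Dp16 females. In males it was at 6.49 and 30.0 CPM in 5xFAD-Dp16, against 968 and 1251 CPM in Dp16. With the log2 choroid sum as a covariate, chosen after seeing the data, 58 genes were called in 5xFAD-Dp16 against Dp16, 56 of them shared with the 68, and Cst7, Gfap and C1qa kept log2 fold changes of 7.32, 2.02 and 1.36.

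**Figure D5:**
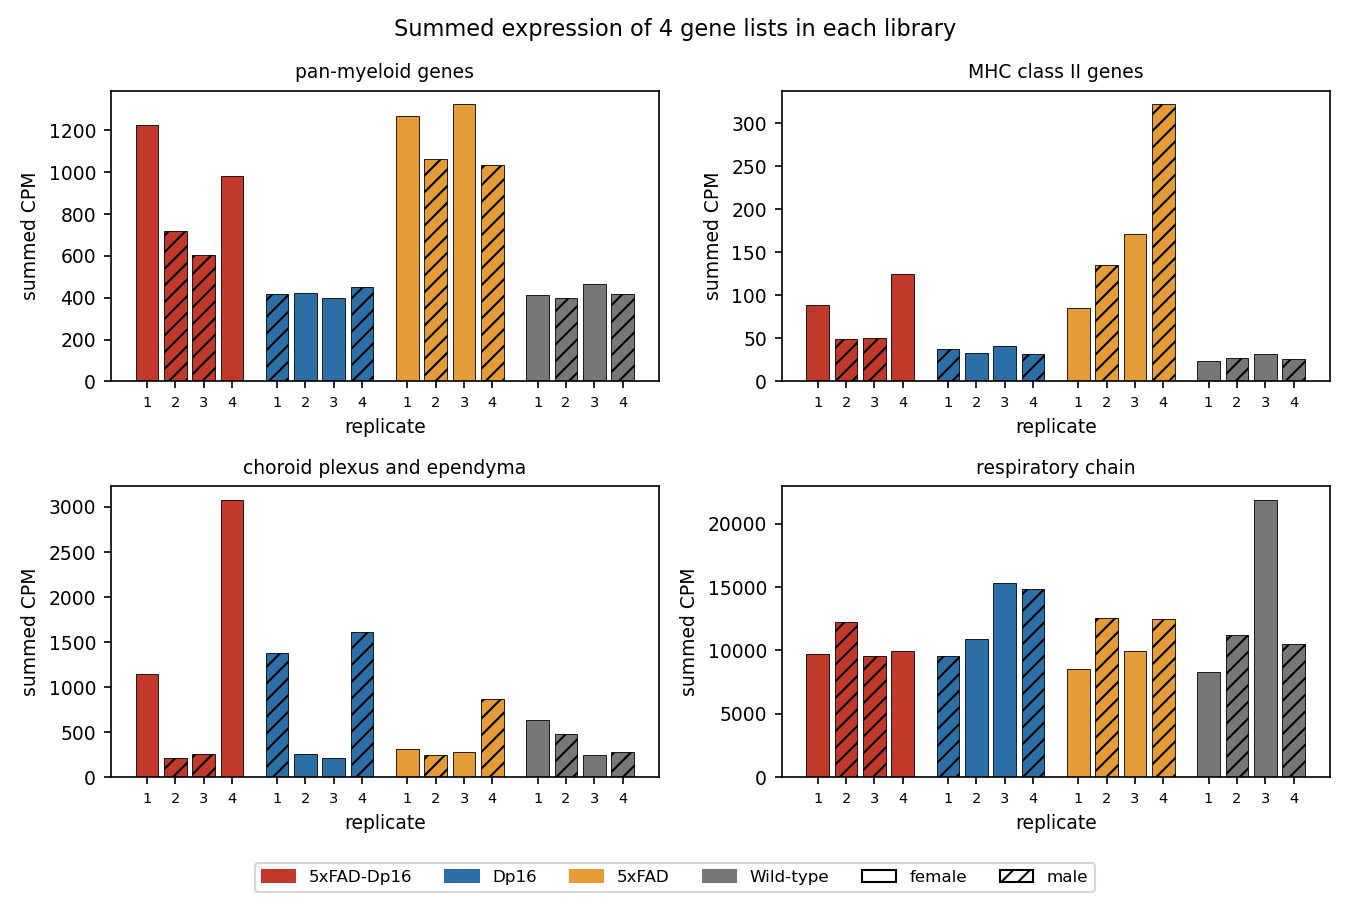
Summed CPM of 4 gene lists in each of the 16 libraries, by group and replicate number, with males hatched. Pan-myeloid sums were 604 to 1226 CPM in 5xFAD-Dp16 and 401 to 452 CPM in Dp16, whereas choroid plexus sums were above 1000 CPM in 2 libraries of each of these groups.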

How the data were processed

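Per the labels' protocols, TRIzol RNA was poly-A enriched, made into strand-specific libraries and sequenced as paired ends on a NovaSeq instrument. The submitters' processing notes name HISAT2 2.1.0, SAMtools 1.5, HTSeq 0.6.1 and GRCm38. Whether strand was used in counting is not stated in those notes, so overlapping and antisense genes, like near-identical copies, are uncertain. The authors deposited raw read counts per gene and RPKM values, which are the same counts scaled by gene length and library total. Coordinates came from GENCODE M21 and promoters from RefSeq.

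The main test was edgeR 4.0.16 (R 4.3.3) on the deposited counts: quasi-likelihood, TMM, filterByExpr (minimum count 10), 16 libraries in 1 fit of 4 group means with sex as a covariate, Benjamini-Hochberg adjustment over 17555 genes, threshold 0.05. The sex difference used 8 group-by-sex means. Levels are TMM-normalized CPM. Standard errors derive from the F statistic. Sex labels matched Xist and Ddx3y in 16 of 16 libraries. No replicate pair was a copy: counts within a group differed with a chi-square of 18.8 to 170 per degree of freedom. The 38 lists hold 744 entries (741 found by symbol, 2 by synonym, 1 not found); some genes are in several lists. The members and lists were chosen with earlier results of these data known. Named genes are Thy1, App, Trem2, Apoe, Gfap and Samsn1, called genes of largest fold change without overlap, the members of smallest p of each list and of the segment, and those leading the interaction, the sex contrast and the genes below 0; other list members were named after their values were seen. Some items of the lists are not reported here. Intervals and floors (95% exact binomial, 3 counts) cover counting error only. The fits were tested on simulated counts.

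Alternatives were DESeq2 1.42.0, RLE size factors, no filter, no sex term, a replicate block, only the 8 libraries, each library left out, limma-trend (limma 3.58.1) on log2(RPKM + 0.1) and log2(RPKM + 1), the length slope as a covariate, the 3 libraries of lowest slope left out, and voom with quality weights. After the data were seen, 2 were added: the 4 libraries of choroid sums above 1000 CPM left out, and that sum as a covariate.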

Additional observations from a re-analysis of the deposited data

Results flagged for a closer look

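In 19 cases 1 library lay far from the other 3 of its group, by its gap to the nearest value over the group's range. Chance gives this in about 1 of 20 groups, and 196 groups were examined. In 8 cases the library was Dp16 replicate 3. It was the highest of its group for Gfap (549 CPM), Clec7a (6.10 CPM), Cd52 (7.34 CPM), Cybb (1.39 CPM), Trim30a (4.47 CPM), Cxcl10 (1.14 CPM) and Rpph1 (22.2 CPM), and the lowest for Apoe (2182 CPM). Its length slope and striatal marker sum also stood apart, and their part in these values was not tested. Of these genes 6 were called in 5xFAD-Dp16 against Dp16. As this library was their highest Dp16 value, their Dp16 mean is by definition higher with it than without it.

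In 5xFAD-Dp16 replicate 1, a female, Spp1 (81.6 CPM), Gpnmb (70.4 CPM), Gpr84 (5.79 CPM) and Ifnar2 (40.4 CPM) were far above the other 3 libraries. Tmem72, a choroid plexus gene, was at 14.3 CPM in 5xFAD-Dp16 replicate 4, the library of highest choroid sum, and the respiratory chain sum was 12212 CPM in 5xFAD-Dp16 replicate 2. Among the Dp16 libraries, Gpnmb was high in replicate 2 (4.14 CPM) and Lox in replicate 4 (0.273 CPM). Gucy2g was low in replicate 1 (11.99 CPM), H2-D1 in replicate 4 (38.96 CPM) and Fgr in replicate 4 (0 CPM). Fgr had 6 counts over the Dp16 libraries. Its flag and that of Lox rest on few reads, where the chance rate given above may not hold.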

How the results depend on the processing

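For 5xFAD-Dp16 against Dp16, with 68 genes called, DESeq2 called 179 (174 higher, 5 lower), no low-count filter 236 (211 higher, 25 lower), the gene-length slope as a covariate 215 (214 higher, 1 lower), voom with sample quality weights 221 (219 higher, 2 lower), and the 8 libraries alone 44. Leaving out each library in turn gave 22 to 127 calls. Without the 4 libraries of high choroid markers 0 were called (380 at an unadjusted p under 0.05); that fit sets 2 males of 5xFAD-Dp16 against 2 females of Dp16. Cst7, Itgax, Clec7a, Gfap and C1qa still had log2 fold changes of 6.22, 4.64, 3.03, 1.64 and 1.26 in it. For the interaction, with 0 calls, DESeq2 called 1 and no filter 25. For the sex difference, with 0 calls, DESeq2 called 32, no filter 56, the 8 libraries alone 3, log2(RPKM + 1) 3 and the slope covariate 9, and leaving out libraries gave 0 to 3. The cause was not tested. The direction of no named gene's called value turned in any alternative, and 19 of the 68 genes were called in 28 of 29, the exception being the fit without the 4 libraries. The replicate numbers did not pair the samples, as same-numbered libraries had correlations of deviations of 0.03, -0.10, -0.17 and -0.01, and the replicate block gave 60 calls. With 4 libraries a group and 2 a sex, effects well under a doubling were often not detectable, and low-count genes such as Ccl4 and Cd3e rest on few reads.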

Other observations

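Further genes called higher in 5xFAD-Dp16 than in Dp16 lay outside the lists and are named here after their values were seen. Mpeg1, the macrophage pore-forming protein perforin-2, was at 199.95, 104, 85.7 and 142 CPM in 5xFAD-Dp16, against 29.8, 35.03, 28.8 and 40.1 CPM in Dp16. Plek, a platelet and leukocyte substrate of protein kinase C, was at 48.5, 25.2, 22.5 and 36.6 CPM in 5xFAD-Dp16, against 11.95, 12.7, 10.1 and 10.4 CPM in Dp16. Both had groups well apart. Slc14a1, a urea transporter of astrocytes, was at 21.1, 21.5, 16.1 and 26.7 CPM in 5xFAD-Dp16, against 10.6, 8.72, 9.33 and 6.65 CPM in Dp16, and Casp8, an initiator of cell death signalling, at 3.77, 3.98, 3.29 and 4.12 CPM in 5xFAD-Dp16, against 1.88, 1.64, 1.69 and 2.32 CPM in Dp16. Some were close to absent without the transgenes. Tnfsf8, which encodes the ligand of CD30, had 193 counts over the 4 libraries of 5xFAD-Dp16 and 5 over those of Dp16, a ratio of 39.3 (95% interval 16.5 to 122, counting error only). Pdcd1, the checkpoint receptor PD-1, had 202 counts in 5xFAD-Dp16 and 10 in Dp16, a ratio of 20.6. Fgr, a Src-family kinase of myeloid cells, had 88 counts in 5xFAD-Dp16 and 6 in Dp16, and Ctse, the aspartic protease cathepsin E, 78 in 5xFAD-Dp16 and 3 in Dp16.

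Genes that degrade or clear amyloid were not called: 0 of 14 tested, with a median log2 fold change of 0.18. Ide, the insulin-degrading enzyme, averaged 49.4 ± 14.8 CPM in 5xFAD-Dp16 and 28.1 ± 6.6 CPM in Dp16 (SD, n = 4 each, edgeR adjusted p = 0.98). It was called in 1 of 29 alternative analyses. Among ependymal genes, Tmem212 was at 0.807, 0.358, 0.257 and 1.39 CPM in 5xFAD-Dp16, against 1.44, 1.40, 5.81 and 2.23 CPM in Dp16. This puts all 4 transgenic libraries below the others without a call in the main test (edgeR adjusted p = 0.446). Tmem212 was called in 1 of 29 alternative analyses. Its value in Dp16 replicate 3 was the highest of the 8 libraries.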
